A study of Mus musculus with 8 samples.

Results

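The genes described here encode the voltage-gated sodium channels (Scn), the epithelial sodium channel (Scnn1), the voltage-gated calcium channels with their auxiliary subunits (Cacn), the TRP channels of the A, C, M and V families, and the HCN pacemaker channels. They were picked out by a rule on gene symbols, and they numbered 68 of the 23284 genes in the count files. The rule itself uses no measured value, but it was set with earlier results of these data known. The samples were 8 bulk RNA-seq libraries from mouse preSC cells, which are known from work on mouse small cell lung cancer as neuroendocrine precursor cells of that tumour. The 4 MaxKO libraries came from cells transduced with a guide RNA against Max, and the 4 control libraries (Ctrl) from cells transduced with a control guide RNA. Max encodes the obligate dimerisation partner of the MYC family and of the MXD, MNT and MGA repressors, and the comparison asked how expression differed when it was targeted. All 8 libraries shared the parental genotype Chga-GFP;Rblox/lox;p53lox/lox;p130lox and the mixed 129/SvJ; C57BL/6 strain. Both groups were polyclonal populations, selected with puromycin and then expanded, and received no treatment, so each library averages over cells with different edits and possibly over unedited cells. Separate transductions or cultures are not mentioned in the labels, so a p-value here reflects only how the 8 libraries vary, and that variation could be technical.

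Voltage-gated sodium and calcium channels open when the membrane depolarises. Sodium channels carry the upstroke of the action potential, whereas calcium channels couple electrical activity to secretion and gene expression. HCN channels open on hyperpolarisation and set pacemaker activity, the epithelial sodium channel (ENaC) is a constitutively open pore of absorbing epithelia, and TRP channels are cation channels gated by lipids, temperature, calcium or chemical ligands. Lung neuroendocrine cells and the tumours derived from them are electrically excitable and secrete through voltage-gated calcium channels, and in patients P/Q-type calcium channels are the antigen of a paraneoplastic myasthenic syndrome.

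Gene-assigned reads numbered 14952291 to 19480947 per MaxKO library and 13711278 to 19804949 per control. In CPM, reads scaled to a common library total, 1 read was worth 0.0505 to 0.0729. Levels below are CPM after TMM scaling, and folds are log2 differences of MaxKO minus control. Max itself was at 42.3, 42.3, 59.1 and 68.0 CPM in the MaxKO libraries and at 65.5, 70.2, 75.2 and 61.9 in the controls, a log2 difference of -0.37 (SE 0.15) that did not pass the test (edgeR quasi-likelihood, adjusted p = 0.0955). Without MaxKO library 4 the fall in Max passed (log2 -0.52, edgeR adjusted p = 0.0228). A guide RNA cuts DNA and need not lower the transcript. The controls did not form 1 homogeneous group: reads outside exons made up 18.5 to 18.6% in controls 1 and 2, 23.3 to 23.4% in controls 3 and 4, and 20.5 to 21.5% in MaxKO. The difference of each gene named as called was therefore also computed against each pair of controls, except for Stac2 against controls 3 and 4. Library correlations of log CPM over all tested genes were 0.9953 between controls 1 and 2 and 0.983 between controls 3 and 4. Control 4 correlated with the MaxKO libraries at 0.9801 to 0.9824, and controls 1 to 3 did so at 0.9627 to 0.9744. Control 3 by itself did so at 0.9627 to 0.9691. Controls 3 and 4 were thus not equally like MaxKO, and a difference against this pair alone can rest unevenly on its libraries. Of the neuroendocrine markers that define the labelled cell type, Chga was at 442 ± 34.0 CPM in MaxKO and 457 ± 8.75 in the controls (SD, n = 4), and Insm1, Chga and Syp did not pass the test. Of 13 tested neuroendocrine markers 1 was higher and 3 were lower (30.8% called, beside 23.1% of all genes tested). Markers of other cells were mostly near 0. The 12 muscle markers were all under 1 CPM in every library, 7 of 10 fibroblast markers were under 1 CPM with Lum at 0, Fcgr3 and Tyrobp of the haematopoietic list were at 0, and Scgb3a2 and Krt5 of other lung epithelium were at 0. The fibroblast sum was 49.5 to 65.7 CPM in MaxKO and 26.7 to 46.4 in the controls and was nearly all Dcn. Without Dcn it went the other way, at 1.18 to 2.02 CPM in MaxKO and 3.19 to 5.4 in the controls. The endothelial sum was 588 to 697 CPM in MaxKO and 258 to 427 in the controls and was nearly all Vwf, without which it was 1.12 to 1.58 and 1.10 to 2.55. In bulk RNA, fewer cells of a type and less RNA per cell cannot be told apart.

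Of the 68 channel genes, 67 had at least 1 read and 43 passed the filter on low counts. In MaxKO, 12 were higher and 7 were lower at an adjusted p under 0.05 (edgeR quasi-likelihood test, Benjamini-Hochberg over 13358 genes). The 19 called genes were 44.2% of the channel genes tested, beside 23.1% of all genes tested. The 12 higher genes were 27.9%, beside 10.9% of all genes, and the 7 lower genes were 16.3%, beside 12.2%. The 2 groups of libraries did not overlap for 17 channel genes (39.5%), beside 26.4% of all genes. No test set these shares against each other. The median log2 difference was 0.04 over the 43 channel genes and 0.00 over all genes tested. A filter on low counts keeps some genes only because 1 group expresses them, and 7 tested channel genes reached its cut of 0.62 CPM in all 4 libraries of only 1 group. Of these 7, 5 were called: Cacna1g, Cacng2, Cacng5, Trpv3 and Trpv6. Of the 35 that reached it in all 8 libraries, 10 were higher and 4 lower, whereas among the 12569 genes that did so 11.2% were higher and 11.5% lower.

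Of 29 tested genes for pore-forming subunits, 11 were higher and 2 lower, with a median log2 difference of 0.28. These were 37.9% and 6.9%, beside 10.9% higher and 12.2% lower of all genes tested. Of 14 tested genes for auxiliary subunits, which modify trafficking or gating, 1 was higher (7.14%) and 5 lower (35.7%), with a median of -0.22. The lower share of this class came mostly from the calcium channel gamma subunits, of which all 4 tested were lower. These gamma genes are best known as regulators of AMPA receptors. Among the other auxiliary genes, 1 of 4 alpha2delta genes was lower and 1 of 4 calcium channel beta genes was higher. None of the 2 tested sodium channel beta genes was called. The difference between the pore-forming and the auxiliary class was not tested. At least 2-fold differences were called for 4 genes in the higher direction (Scnn1b, Scnn1g, Trpv3, Trpv6) and for 6 in the lower direction (Cacna1g, Cacna1i, Cacna2d2, Cacng2, Cacng4, Cacng5).

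**Figure D1:**
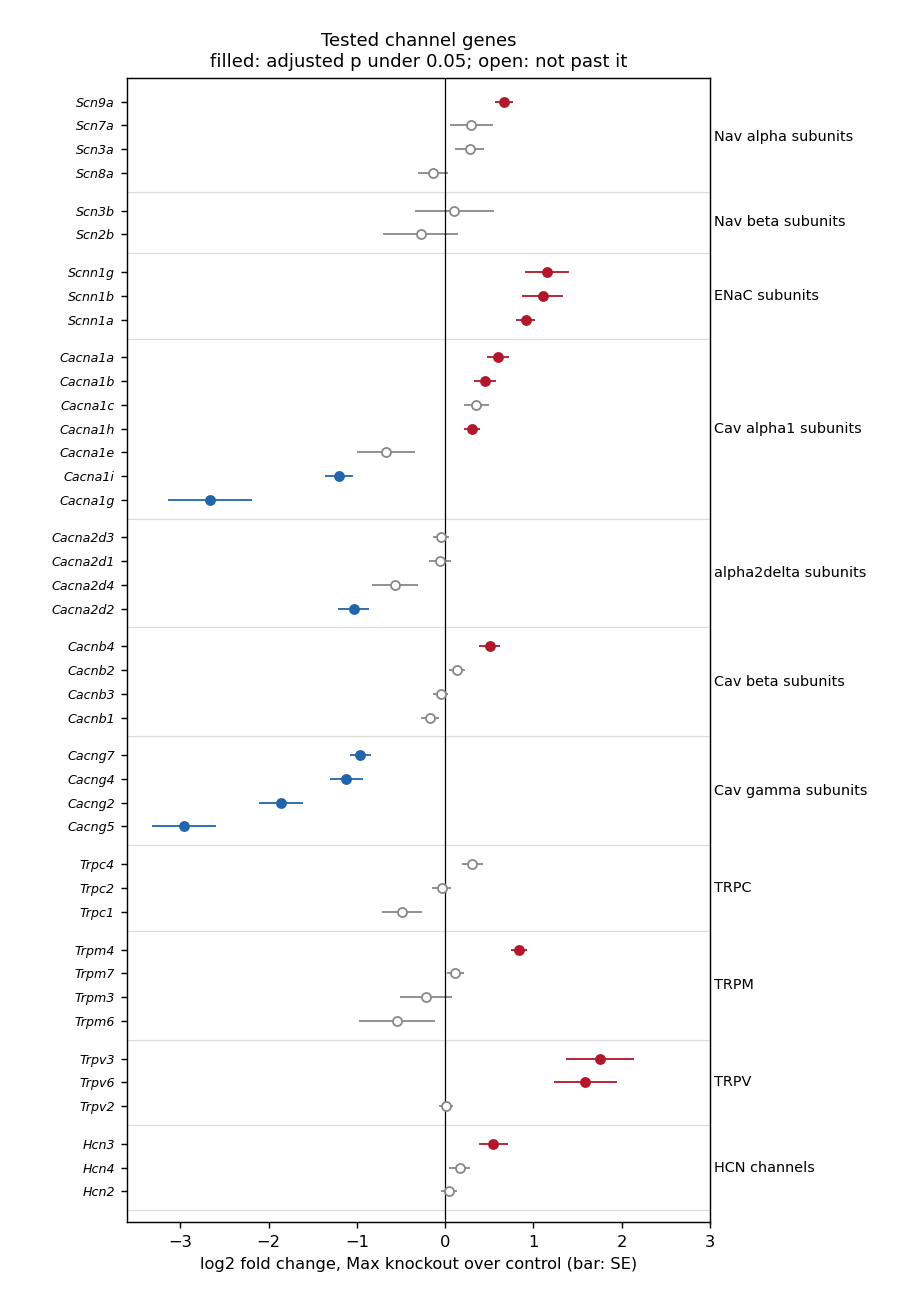
Log2 difference (MaxKO minus control, 4 libraries each) of tested channel genes, grouped by subfamily, with bars of 1 standard error and filled points for genes past adjusted p 0.05. All 3 ENaC subunits lie to the right of 0 and all 4 tested Cav gamma subunits lie to the left.

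All 3 subunits of the epithelial sodium channel were higher in MaxKO. ENaC is a heterotrimer of an alpha, a beta and a gamma subunit, encoded by Scnn1a, Scnn1b and Scnn1g. Scnn1a, the alpha subunit that the channel needs to conduct, was at 176, 183, 174 and 191 CPM in MaxKO libraries 1 to 4 and at 83.5, 85.8, 95.7 and 119 CPM in controls 1 to 4. Its means were 181 ± 7.76 and 96.0 ± 16.2 CPM (SD, n = 4), a log2 difference of 0.91 (SE 0.11, edgeR adjusted p = 0.000143). The highest control lay well below the lowest MaxKO library. The beta subunit Scnn1b was at 7.72, 6.70, 6.64 and 5.61 CPM in MaxKO and at 2.21, 4.33, 2.12 and 3.70 CPM in the controls, a log2 difference of 1.11 (SE 0.23, edgeR adjusted p = 0.00485). The gamma subunit Scnn1g was at 3.60, 2.19, 2.37 and 2.23 CPM in MaxKO and at 1.16, 1.44, 0.878 and 1.18 CPM in the controls, a log2 difference of 1.15 (SE 0.25, edgeR adjusted p = 0.00584). For both genes the groups did not overlap. MaxKO library 1 stood above the other 3 for Scnn1g. The 3 subunits were not at equal levels: per kilobase of exon, Scnn1a was at 43.8 CPM in MaxKO, Scnn1b at 2.53 and Scnn1g at 0.869, and in the controls they were at 23.2, 1.17 and 0.389.

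Scnn1g and Scnn1b are adjacent on chromosome 7 with no protein-coding gene between them, and their promoter windows are shown because the pair moved together. The windows are the 250 bases before each transcription start in RefSeq (GRCm38.p6, plus strand, 5′ to 3′), at chr7:121734229-121734478 for Scnn1g and chr7:121864788-121865037 for Scnn1b. Neither contains CACGTG, the palindromic E-box to which MAX dimers bind, nor CACGCG on either strand.
Scnn1g: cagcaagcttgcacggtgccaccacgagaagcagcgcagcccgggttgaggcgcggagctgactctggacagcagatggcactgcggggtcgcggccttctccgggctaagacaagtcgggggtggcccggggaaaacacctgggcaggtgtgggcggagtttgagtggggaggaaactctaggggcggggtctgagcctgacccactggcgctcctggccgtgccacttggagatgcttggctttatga
Scnn1b: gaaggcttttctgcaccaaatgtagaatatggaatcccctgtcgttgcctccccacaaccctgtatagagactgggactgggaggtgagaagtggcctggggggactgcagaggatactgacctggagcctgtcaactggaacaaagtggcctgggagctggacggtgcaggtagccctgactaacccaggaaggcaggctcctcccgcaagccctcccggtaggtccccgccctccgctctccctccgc

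Genes that regulate ENaC and sodium channels were examined as a list of 20, of which 18 were tested, 4 were higher and 3 lower (median log2 difference 0.00). That is 38.9% called, beside 23.1% of all genes tested. Prss8, which encodes the channel-activating protease prostasin, rose from 10.6 ± 3.18 to 22.3 ± 1.55 CPM (SD, n = 4), a log2 difference of 1.08 (edgeR adjusted p = 0.00151). The other 2 ENaC regulators given here, Nedd4l and Sgk1, were picked after their values were seen. Nedd4l, a ubiquitin ligase that removes ENaC from the cell surface, rose from 11.6 ± 1.53 to 16.6 ± 0.922 CPM (log2 difference 0.52, edgeR adjusted p = 0.00619). Sgk1, a kinase that inhibits Nedd4l, was at 1.30, 1.26, 1.90 and 1.72 CPM in MaxKO and at 10.4, 7.88, 16.8 and 2.41 CPM in the controls. Its log2 difference was -2.59 (SE 0.49, edgeR adjusted p = 0.00358). Control 4 lay close to the MaxKO libraries, and against controls 3 and 4 alone the Sgk1 difference missed the threshold (log2 -2.61, edgeR adjusted p = 0.0523). The members of this list therefore did not move in 1 direction.

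Among the sodium channels proper, 5 of 9 alpha-subunit genes were tested and 1 of them, Scn9a, was higher in MaxKO. That is 20% called, beside 23.1% of all genes tested. Scn9a encodes the sensory-neuron sodium channel known for its part in pain. It was at 128, 146, 125 and 108 CPM in MaxKO and at 84.8, 74.2, 70.6 and 89.9 CPM in the controls, a log2 difference of 0.67 (SE 0.11, edgeR adjusted p = 0.000959). The groups did not overlap, and against either pair of controls the difference was nearly the same (0.67 and 0.65). Scn2a, which encodes a brain sodium channel, is listed under its older symbol Scn2a1 and so fell outside the symbol rule. It was added after its values were seen and stood at 35.9, 32.5, 32.0 and 30.7 CPM in MaxKO and at 19.4, 15.8, 17.7 and 23.1 CPM in the controls (log2 difference 0.78, SE 0.11, edgeR adjusted p = 0.000611). It too showed no overlap between groups.

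The other 4 tested alpha subunits did not pass the test, with log2 differences of 0.28 for Scn3a, 0.30 for the sodium sensor Scn7a and -0.14 for Scn8a, the subunit of axon initial segments, among them. Scn8a differed between the 2 pairs of controls. It was at 48.6, 48.2, 48.6 and 52.8 CPM in MaxKO, at 39.6 and 42.8 CPM in controls 1 and 2, and at 66.9 and 69.1 CPM in controls 3 and 4. Against controls 1 and 2 alone it was higher in MaxKO (log2 0.27, edgeR adjusted p = 0.0108), and against controls 3 and 4 alone it was lower (log2 -0.46, edgeR adjusted p = 0.00225). No direction can be given for it. Of the 4 beta subunits, single-pass proteins that modulate gating, 2 were tested at low levels. Scn2b was at 1.15, 0.464, 0.339 and 0.893 CPM in MaxKO and at 0.805, 0.662, 1.54 and 0.617 CPM in the controls, with overlapping groups (log2 -0.28, edgeR adjusted p = 0.687), and Scn3b did not pass either (log2 0.10).

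The fibroblast growth factor homologous factors bind the cytoplasmic tail of sodium channel alpha subunits. Of the 4 genes of this family in the list, Fgf12 and Fgf13 were higher in MaxKO, Fgf14 did not pass (93.4 ± 5.66 against 96.9 ± 19.7 CPM, log2 -0.06, edgeR adjusted p = 0.8), and Fgf11 had too few reads to test. Fgf12 rose from 28.3 ± 1.73 to 52.5 ± 7.02 CPM (SD, n = 4; log2 difference 0.89, edgeR adjusted p = 0.00015). Fgf13 rose from 56.1 ± 15.5 to 103 ± 6.34 CPM (log2 difference 0.88, edgeR adjusted p = 0.00226). Accn1, a sodium channel of the acid-sensing family related to ENaC, fell from 10.5 ± 2.87 to 5.22 ± 0.635 CPM (log2 -0.996, edgeR adjusted p = 0.00346).

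The pore-forming alpha1 subunits of calcium channels went in both directions. Of 10 genes, 7 were tested, 3 were higher and 2 lower (71.4% called, beside 23.1% of all genes tested). The presynaptic P/Q-type and N-type channels, which trigger transmitter and hormone release, were higher in MaxKO, and the low-voltage-activated T-type channels went in both directions. Cacna1a, the P/Q-type pore, was at 149, 158, 154 and 155 CPM in MaxKO and at 84.6, 86.2, 102 and 134 CPM in the controls (log2 difference 0.60, SE 0.13, edgeR adjusted p = 0.00539). The 4 MaxKO libraries lay close together above all controls, while control 4 was the nearest to them. Cacna1b, the N-type pore, was at 75.1, 96.5, 79.1 and 80.5 CPM in MaxKO and at 55.1, 51.8, 58.6 and 77.1 CPM in the controls (log2 difference 0.45, SE 0.12, edgeR adjusted p = 0.0227). For Cacna1b control 4 overlapped the MaxKO range, and the call was lost against controls 3 and 4 alone (log2 0.28, edgeR adjusted p = 0.149).

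The T-type genes are Cacna1g, Cacna1h and Cacna1i, whose channels open near the resting potential. Cacna1h was the alpha1 gene with the most reads, at 236, 269, 259 and 304 CPM in MaxKO and 231, 210, 193 and 231 CPM in the controls. Its log2 difference was small, 0.30 (SE 0.09, edgeR adjusted p = 0.0345), and it was lost in 5 of 8 fits that left out 1 library. Cacna1i was at 2.09, 2.46, 2.64 and 2.23 CPM in MaxKO and at 4.98, 5.29, 5.56 and 5.89 CPM in the controls, a log2 difference of -1.21 (SE 0.16, edgeR adjusted p = 0.000327). These 2 ranges were narrow and far apart. Cacna1g was at 0.365, 0.332, 0.271 and 0.574 CPM in MaxKO and at 2.62, 2.35, 4.32 and 0.842 CPM in the controls, a log2 difference of -2.67 (SE 0.48, edgeR adjusted p = 0.00211). Control 4 was again the control nearest to MaxKO, and the groups did not overlap. Cacna1g reached the filter's cut in 0 of 4 MaxKO libraries, so it was tested only because of its level in the controls. In MaxKO it rested on 4 to 9 reads per library. Per kilobase of exon Cacna1h was at 27.4 CPM in MaxKO and 22.1 in the controls. The L-type pore Cacna1c (62.8 ± 4.47 against 49.1 ± 11.5 CPM, log2 0.35, edgeR adjusted p = 0.0876) and the R-type pore Cacna1e (log2 -0.67, edgeR adjusted p = 0.166) did not pass the test.

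The alpha2delta subunits are extracellular proteins that bring calcium channels to the membrane and are the binding site of gabapentin. Of these 4 genes, Cacna2d2 was the 1 that passed the test (25% called, beside 23.1% of all genes tested). It was at 9.86, 11.1, 14.2 and 15.4 CPM in MaxKO and at 20.1, 22.3, 29.9 and 31.2 CPM in the controls, a log2 difference of -1.04 (SE 0.17, edgeR adjusted p = 0.00152), and the groups did not overlap. Cacna2d1 was the alpha2delta gene with the most reads, at 405, 465, 429 and 362 CPM in MaxKO and at 533, 457, 341 and 398 CPM in the controls. These ranges overlapped throughout (log2 -0.06, edgeR adjusted p = 0.793), and Cacna2d3 and Cacna2d4 had log2 differences of -0.05 and -0.57 that did not pass.

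The beta subunits bind the alpha1 subunit inside the cell and raise its surface level. Cacnb4 was higher, at 12.2, 14.1, 14.5 and 12.2 CPM in MaxKO and at 9.41, 8.78, 8.20 and 10.9 CPM in the controls (log2 difference 0.50, SE 0.12, edgeR adjusted p = 0.0105), with no overlap. Cacnb3 had the most reads of the 4, at 67.9, 61.6, 64.6 and 75.5 CPM in MaxKO and at 63.5, 67.8, 72.8 and 75.2 CPM in the controls, and did not pass (log2 -0.05, edgeR adjusted p = 0.725). Cacnb1 and Cacnb2 did not pass either, with log2 differences of -0.17 and 0.13.

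**Figure D2:**
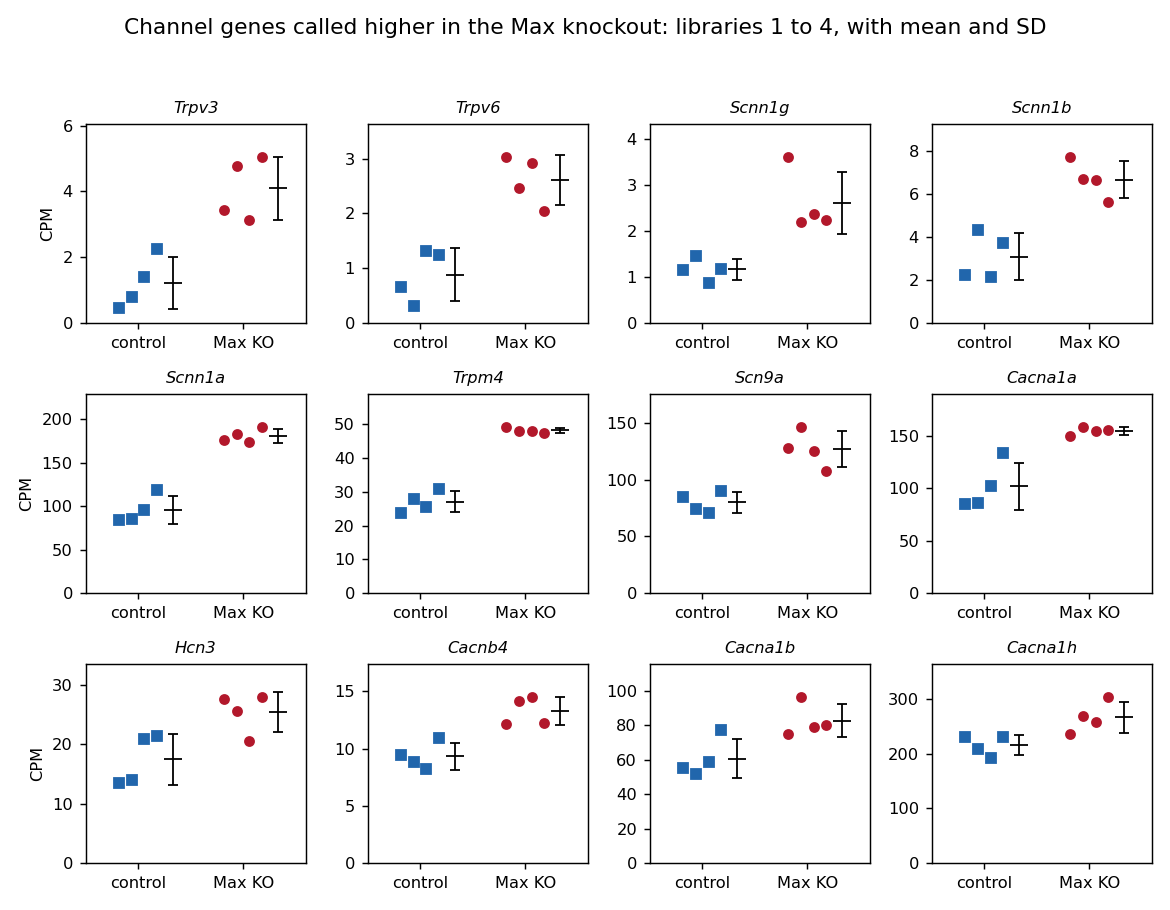
TMM-scaled CPM in each of the 4 MaxKO and 4 control libraries for the 12 channel genes called higher, 1 panel per gene with its own linear axis from 0, and with bars for the mean ± SD of each group. The groups overlap for Cacna1b and Hcn3, and control 4 is the highest control for every gene except Scnn1b, Scnn1g and Trpv6.

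All 4 tested Cav gamma genes were lower in MaxKO, and for none of them did the groups of libraries overlap. Cacng4 and Cacng7 reached the filter's cut in all 8 libraries, whereas Cacng2 reached it in 3 of 4 MaxKO libraries and Cacng5 in none, so that Cacng5 was tested only because of its level in the controls. Cacng2 (stargazin), Cacng4, Cacng5 and Cacng7 are named for homology to a skeletal muscle calcium channel subunit but are best known as transmembrane AMPA receptor regulatory proteins (TARPs), which traffic and tune glutamate receptors. Cacng7, the gamma gene with the most reads, was at 16.1, 18.6, 18.4 and 23.4 CPM in MaxKO and at 38.8, 37.6, 31.4 and 40.6 CPM in the controls (log2 difference -0.96, SE 0.12, edgeR adjusted p = 0.000255). Cacng4 was at 10.2, 8.29, 9.28 and 8.93 CPM in MaxKO and at 14.4, 15.6, 25.3 and 24.9 CPM in the controls (log2 difference -1.12, SE 0.19, edgeR adjusted p = 0.00141). Controls 3 and 4 were the higher pair for Cacng4, and its log2 difference was -0.71 against controls 1 and 2 and -1.45 against controls 3 and 4. Cacng2 was at 1.57, 1.39, 0.610 and 1.34 CPM in MaxKO and at 4.18, 4.51, 4.61 and 4.77 CPM in the controls (log2 difference -1.86, SE 0.24, edgeR adjusted p = 0.00033). Cacng5 had the largest fall of all tested channel genes, from 1.71, 2.65, 2.27 and 1.35 CPM in the controls to 0.209, 0.133, 0.406 and 0.255 CPM in MaxKO, where it rested on 2 to 6 reads per library (log2 difference -2.96, SE 0.36, edgeR adjusted p = 0.000215). Cacng4 and Cacng5 are adjacent on chromosome 11. The other 4 gamma genes, among them the skeletal muscle subunit Cacng1, had too few reads to test.

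**Figure D3:**
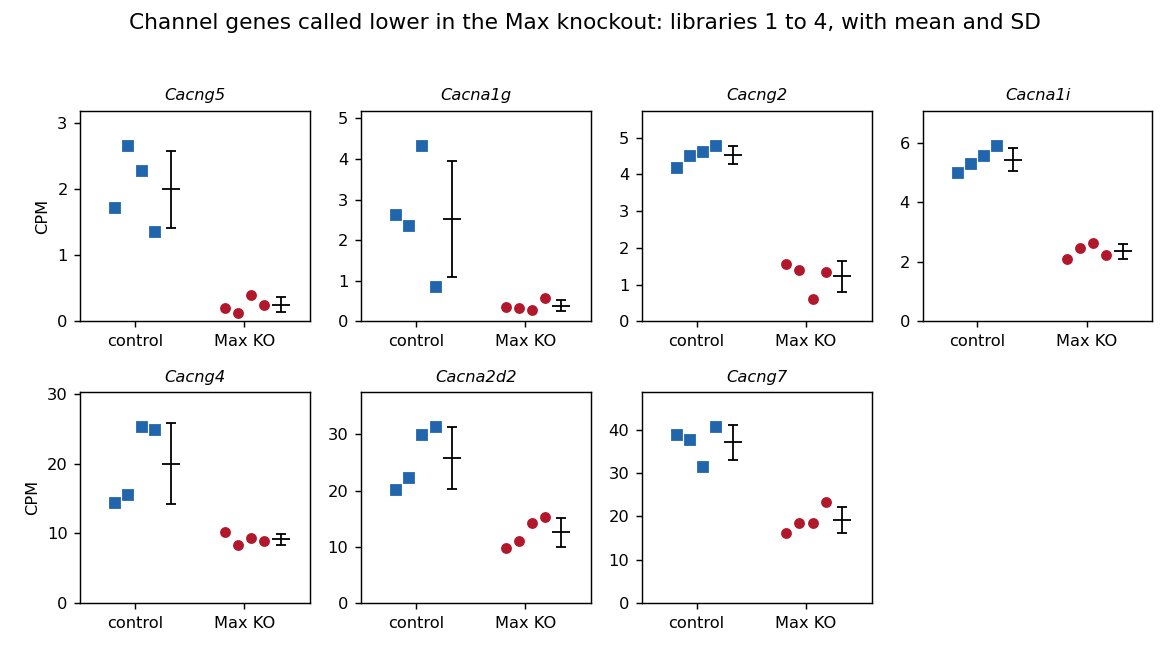
TMM-scaled CPM in each of the 4 MaxKO and 4 control libraries for the 7 channel genes called lower, 1 panel per gene with its own linear axis from 0, and with bars for the mean ± SD of each group. Every MaxKO library lies below every control, and for Cacna1g control 4, at 0.842 CPM, is the nearest control to MaxKO.

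The AMPA receptor subunits that TARPs bind were examined after their values were seen. Gria2 fell from 160 ± 15.8 to 133 ± 5.11 CPM (SD, n = 4; log2 -0.27, edgeR adjusted p = 0.0311) and Gria4 from 55.2 ± 5.16 to 45.3 ± 3.01 CPM (log2 -0.29, edgeR adjusted p = 0.0324). Gria3 rose from 39.5 ± 12.4 to 68.8 ± 5.20 CPM (log2 0.80, edgeR adjusted p = 0.00776), and Gria1 was too low to test. Gria3 was called in all 8 fits with 1 library left out, whereas Gria2 was lost in 6 of them and against controls 1 and 2 alone (log2 -0.15, edgeR adjusted p = 0.0826). Gria4 was lost in 5 of them and against controls 3 and 4 alone (log2 -0.21, edgeR adjusted p = 0.149). Of 8 tested neuron markers 4 were lower, namely Rbfox3, Elavl3 (log2 -0.62), Elavl4 (log2 -0.66) and Prph (log2 -1.76), and Snap25 was higher (log2 0.55). Together these were 62.5% of the tested neuron markers, beside 23.1% called of all genes. The calls of Rbfox3 and Elavl3 were lost in 5 and 3 of the 8 fits with 1 library left out. Without control 3 the log2 difference was -1.62 for Rbfox3, beside -3.41 with all libraries. The summed neuron list was 769 to 857 CPM in MaxKO and 853 to 1310 in the controls, and without Elavl3, its most abundant gene, 542 to 566 and 542 to 746. Its part in the lower calcium channel and gamma genes was not tested.

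Of the TRP genes, 10 of 22 were tested, and 3 were higher and none lower. Of all genes tested, 10.9% were higher and 12.2% lower, 23.1% together. Trpm4 encodes a calcium-activated channel that passes monovalent cations and depolarises the cell. It was at 49.2, 48.2, 48.1 and 47.5 CPM in MaxKO and at 23.8, 27.8, 25.4 and 31.0 CPM in the controls, a log2 difference of 0.84 (SE 0.09, edgeR adjusted p = 8.88e-05), the smallest adjusted p of any channel gene. The MaxKO libraries were close to each other and all above the controls. Trpv6, the calcium-selective channel of absorbing epithelia, was at 3.03, 2.46, 2.91 and 2.04 CPM in MaxKO and at 0.654, 0.301, 1.32 and 1.23 CPM in the controls (log2 difference 1.59, SE 0.35, edgeR adjusted p = 0.00697). Trpv3, the warmth-activated channel of keratinocytes, was at 3.44, 4.78, 3.12 and 5.04 CPM in MaxKO and at 0.453, 0.782, 1.39 and 2.24 CPM in the controls (log2 difference 1.76, SE 0.38, edgeR adjusted p = 0.00662). For both genes the groups did not overlap and controls 1 and 2 were the lower pair. Each of these 2 genes reached the filter's cut in 4 MaxKO libraries and in 3 controls. The size of the difference depended on the controls used. Against controls 1 and 2 alone it was 2.74 for Trpv3 and 2.40 for Trpv6, and against controls 3 and 4 alone it was 1.13 (edgeR adjusted p = 0.0147) and 1.03 (edgeR adjusted p = 0.0205).

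The remaining TRP genes tested did not pass. Trpm7, a channel fused to a kinase that handles magnesium, was at 123, 137, 131 and 114 CPM in MaxKO and at 128, 113, 98.0 and 125 CPM in the controls (log2 0.12, edgeR adjusted p = 0.418). Trpv2 was at 50.4, 48.4, 47.9 and 51.1 CPM in MaxKO and at 49.1, 55.7, 44.2 and 47.2 CPM in the controls (log2 0.01, edgeR adjusted p = 0.94). Trpc2, the channel of rodent vomeronasal neurons, was at 44.3, 44.8, 45.1 and 50.3 CPM in MaxKO and at 40.7, 41.4, 53.0 and 54.6 CPM in the controls (log2 -0.04, edgeR adjusted p = 0.832). For Trpc2 every MaxKO library lay above controls 1 and 2 and below controls 3 and 4. In GENCODE its exons overlap a read-through gene that is not listed in the count files, so its reads are uncertain. Trpc1 (-0.49), Trpc4 (0.31), Trpm3 (-0.22) and Trpm6 (-0.54) had log2 differences that did not pass.

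The promoter windows of the channel genes were searched for CACGTG because MAX dimers bind that sequence. RefSeq windows were at hand for 52 of the 68 genes, 31 of them tested and 12 called. Some genes have more than 1 window, and a gene is counted below if any of its windows matches. CACGTG, which reads the same on both strands, was present in 6.02% of 32851 RefSeq windows of 250 bases before a start. It was present in 2 of the 31 tested channel genes, the called gene Trpv3 and the uncalled gene Trpm7, whose windows are shown with CACGTG in capitals (GRCm38.p6, 5′ to 3′ on the gene's strand). The Trpv3 window is chr11:73267270-73267519 on the plus strand, where CACGTG begins 67 bases before the start. The Trpm7 window is chr2:126876262-126876511 on the minus strand, where it begins 25 bases before the start.
Trpv3: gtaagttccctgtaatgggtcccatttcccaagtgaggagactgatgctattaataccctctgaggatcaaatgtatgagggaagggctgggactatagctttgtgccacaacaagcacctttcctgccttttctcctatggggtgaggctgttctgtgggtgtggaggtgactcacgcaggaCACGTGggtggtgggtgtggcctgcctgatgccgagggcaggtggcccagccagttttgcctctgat
Trpm7: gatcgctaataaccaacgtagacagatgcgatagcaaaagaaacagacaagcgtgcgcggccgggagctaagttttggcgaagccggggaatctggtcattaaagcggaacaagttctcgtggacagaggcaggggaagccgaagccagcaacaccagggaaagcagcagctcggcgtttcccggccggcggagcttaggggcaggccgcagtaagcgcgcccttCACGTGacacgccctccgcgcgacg

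The related sequence CACGCG, searched on both strands (CGCGTG on the other), was present in 7.62% of all windows. It was present in 5 of the 31 tested channel genes, 3 of them called: Cacna1b and Cacnb4, which were higher, and Cacna2d2, which was lower. For both sequences the percentages count single windows, so they are not directly comparable with these counts of genes. No binding was measured here, and a match describes only these letters in this window.

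All 4 HCN genes were tested and 1 was higher (25% called, beside 23.1% of all genes tested). Hcn3 was at 27.7, 25.7, 20.7 and 28.0 CPM in MaxKO and at 13.5, 14.1, 21.0 and 21.5 CPM in the controls (log2 difference 0.55, SE 0.16, edgeR adjusted p = 0.0325). The groups overlapped, since controls 3 and 4 exceeded MaxKO library 3, and against those controls alone the call was lost (log2 0.26, edgeR adjusted p = 0.19). Hcn3 shares exon bases with Pklr in GENCODE, as Cacna1h does with Tpsg1, and Scn9a, Cacnb4, Cacna1a, Cacng2 and Cacna2d2 overlap exons of other annotated loci, so reads of these genes may be misassigned or left uncounted. The other 3 HCN genes did not pass, with log2 differences of 0.04 for Hcn2 and 0.17 for Hcn4.

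Across genes, levels were set side by side only per kilobase of exon (GENCODE M21). Scnn1a, at 43.8 CPM per kb, was above Cacna2d1, at 33.5, in MaxKO, and the order was the opposite in the controls, at 23.2 and 34.8. Cacna1h followed in both groups, at 27.4 in MaxKO and 22.1 in the controls. Cacna1a was above Cacng7 in MaxKO (13.5 and 7.83 CPM per kb) and below it in the controls (8.91 and 15.2). Averaged over both groups, Hcn2 was at 19.3, Cacnb3 at 17.1, Trpc2 at 16.3, Trpv2 at 11.0 and Trpm7 at 10.7 CPM per kb, and 2 genes with large folds lay far lower, Trpv3 at 0.455 and Cacng5 at 0.293.

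**Figure D4:**
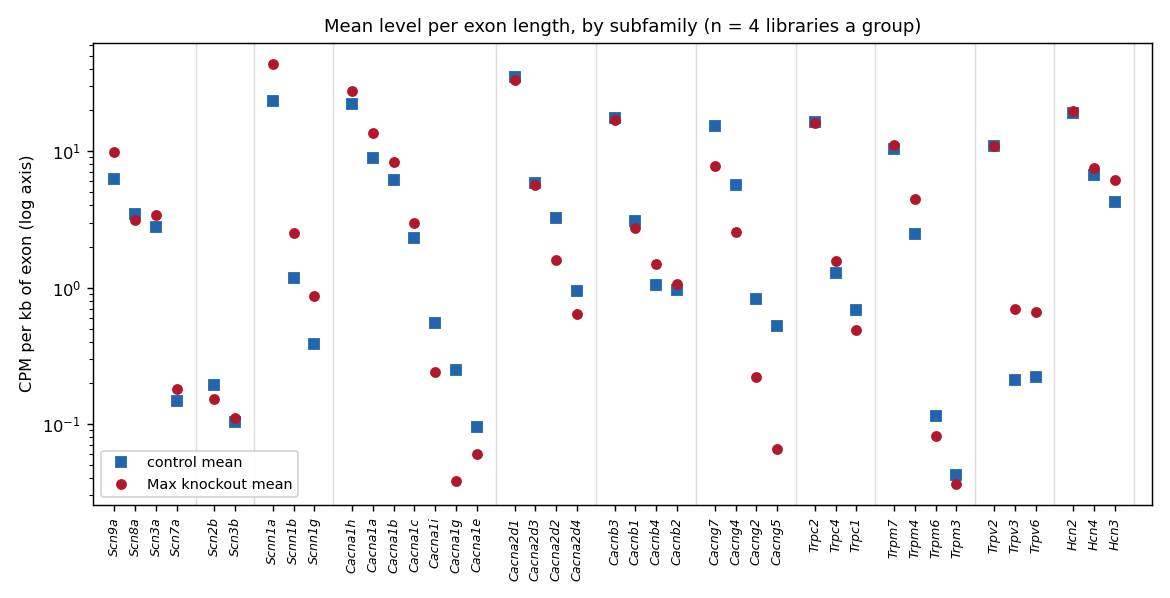
Mean CPM per kilobase of exon in MaxKO and in the controls (4 libraries each, log axis) for tested channel genes. Scnn1a moves from 23.2 in the controls to 43.8 in MaxKO, and Cacng5 from 0.52 to 0.0654.

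The 25 channel genes that could not be tested had few reads in both groups. Trpa1 had no read in any library, 13 genes had 1 to 4 reads over all 8 libraries, and 24 of the 25 were under 1 CPM in every library. The largest total was 67 reads, for Trpv4. A count of 0 in 1 library allows up to 3 reads, or 0.151 to 0.219 CPM depending on the library, by counting error alone. Adjacent genes did not always share expression. Trpv3 lies next to Trpv1 on chromosome 11, Trpv6 next to Trpv5 on chromosome 6 and Cacng7 next to Cacng8 on chromosome 7, and in each of these pairs the neighbour was not tested. On chromosome 2 Scn9a lies between Scn1a, which was not tested, and Scn7a, which did not pass.

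The calls differed in how far they rested on single libraries. Of the 19 called genes, 16 were called in all 8 fits that left out 1 library, and the same number against controls 3 and 4 alone, while all 19 were called against controls 1 and 2 alone. The 3 lost in each case were Cacna1b, Cacna1h and Hcn3, whose largest adjusted p on leaving out 1 library was 0.0792, 0.105 and 0.0987 (edgeR). Cacna1b was lost without MaxKO 2, 3 or 4 or control 1 or 2, Cacna1h without MaxKO 2, 3 or 4 or control 2 or 3, and Hcn3 without MaxKO 1, 2 or 4 or control 1 or 2. Cacna1a kept its call against either pair but at different sizes (log2 0.85 against controls 1 and 2, 0.38 against controls 3 and 4), as did Cacna2d2 (-0.76 and -1.29) and Scnn1a (1.09 and 0.74). Scnn1b (1.06 and 1.16), Cacna1g (-2.67 and -2.67), Cacna1i (-1.13 and -1.29) and Cacng7 (-1.01 and -0.93) varied less.

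**Figure D5:**
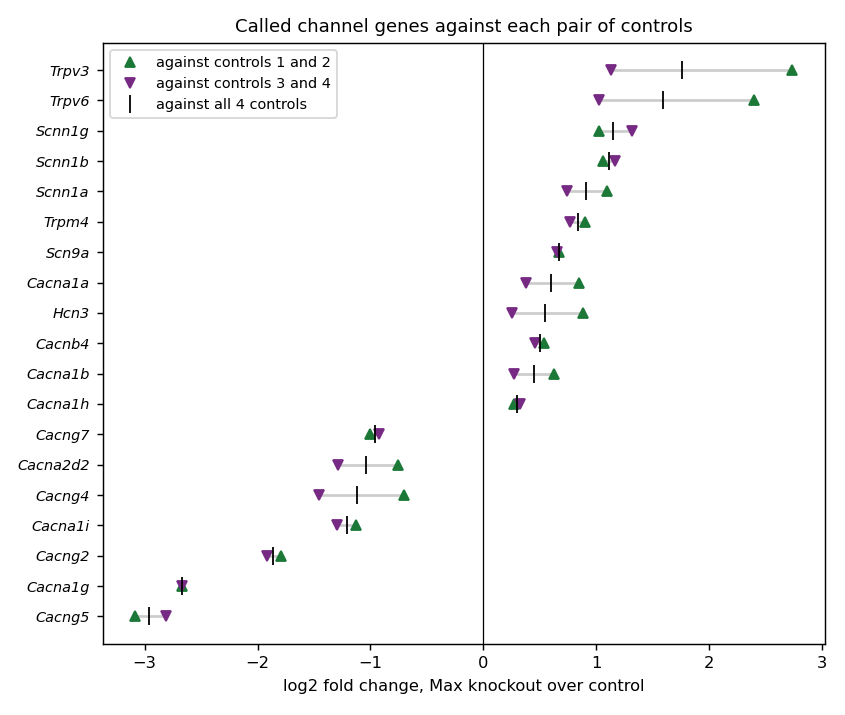
Log2 difference of each of the 19 called channel genes against controls 1 and 2 only and against controls 3 and 4 only (all 4 MaxKO libraries in both), with a tick for the value against all 4 controls. No gene changes sign, Trpv3 moves from 2.74 to 1.13, and Cacna1b, Cacna1h and Hcn3 are not called against controls 3 and 4.

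Channel activity depends on pumps, stores and sensors, and 8 lists of such partner genes were counted with the same fit. Of 131 genes 110 were tested, 16 were higher and 23 lower, which is 35.5% called beside the 23.1% of all genes, with a median log2 difference of -0.02. In the list of store release and store-operated entry, 5 of 14 tested genes (35.7%) were lower, beside 12.2% of all genes, and none was higher. Homer3, a scaffold of calcium release channels, fell by 0.56 on the log2 scale (edgeR adjusted p = 0.00131) and the release channel Ryr1, at low levels, by 1.95 (edgeR adjusted p = 0.00201). Itpr3, an inositol trisphosphate receptor, fell by 1.66 (edgeR adjusted p = 0.0147), by 1.02 without control 3, and missed the threshold against controls 3 and 4 alone (edgeR adjusted p = 0.0658) and with no filter on low counts (edgeR adjusted p = 0.0749). Homer1 fell by 0.48 (edgeR adjusted p = 0.0382), a call lost in 5 of the 8 fits with 1 library left out.

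Calcium pumps, exchangers and mitochondrial uptake genes went both ways, with 4 of 21 higher and 4 lower (38.1% called, beside 23.1% of all genes). The endoplasmic reticulum pump Atp2a3 rose from 578 ± 89.3 to 850 ± 31.4 CPM (SD, n = 4; log2 0.56, edgeR adjusted p = 0.00276). The plasma membrane pump Atp2b4 (log2 -1.51, edgeR adjusted p = 0.000555), the sodium-calcium exchanger Slc8a2 (log2 -0.73, edgeR adjusted p = 0.000658) and the Golgi pump Atp2c1 (log2 -0.37, edgeR adjusted p = 0.00417) fell. Of 8 tested sodium pump genes 2 were higher and 3 lower (62.5% called, beside 23.1% of all genes). The beta subunit Atp1b2 fell (log2 -1.56, edgeR adjusted p = 1.89e-05), while the beta subunit Atp1b1 (log2 0.49, edgeR adjusted p = 0.0185) and Fxyd6 (log2 0.73, edgeR adjusted p = 0.0278) rose. The call of Atp1b1 was lost without MaxKO 1, 2 or 3. That of Fxyd6 was lost without MaxKO 1, 2 or 3 or control 2, with no filter on low counts, and against controls 3 and 4 alone (log2 0.36, edgeR adjusted p = 0.0514).

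Of 13 tested partners of calcium channels 2 were higher and 4 lower (46.2% called, beside 23.1% of all genes). The calcium-binding protein Cabp7 (log2 -1.67, edgeR adjusted p = 0.000959), the adaptor Stac2 (log2 -2.31, edgeR adjusted p = 0.00516) and the GTPases Rem2 (log2 -0.76, edgeR adjusted p = 0.0133) and Gem (log2 -1.92, edgeR adjusted p = 0.0236), which inhibit calcium channels, fell. Stac2 rested on 1 to 7 reads per MaxKO library, and its log2 difference was -2.93 without MaxKO 3. Gem was lost in 5 of the 8 fits with 1 library left out and against controls 3 and 4 alone (log2 -0.94, edgeR adjusted p = 0.212). Of 20 tested genes of calmodulin, calcineurin and CaM kinase signalling 3 were higher and 2 lower, 25% called beside 23.1% of all genes. Those with the smallest p were the kinase Camk2b (log2 -1.56, edgeR adjusted p = 0.000251) and the calcineurin subunit Ppp3cc (log2 0.55, edgeR adjusted p = 0.0036). Camkk2 (log2 0.34, edgeR adjusted p = 0.0165) and Nfatc2 (log2 0.44, edgeR adjusted p = 0.0448) were higher but were each lost in several fits with fewer libraries. Nfatc2 was lost in 6 of the 8 fits with 1 library left out. With all libraries kept, Nfatc2 was also lost with upper-quartile scaling, with no filter and with the filter of 1 CPM in 4 libraries. None of 7 tested polycystins and mucolipins passed.

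The REST complex, known for repressing neuronal channel genes outside neurons, was included because several channel genes are among its textbook targets. Of 9 tested members 1 was higher and 2 lower, which is 33.3% called beside 23.1% of all genes. Rcor2, a corepressor, fell (log2 -0.95, edgeR adjusted p = 0.0014) and Phf21a fell slightly (log2 -0.30, edgeR adjusted p = 0.0224), while Rcor3 rose (log2 0.49, edgeR adjusted p = 0.0138). Phf21a was lost without MaxKO 1, 2 or 3 and Rcor3 without MaxKO 2. Rest itself had 15 reads over all 8 libraries and was not tested.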

How the data were processed

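RNA was sequenced from 4 MaxKO and 4 control libraries, grouped and numbered by their titles. Per the submitters' processing notes the tools included bcl2fastq 1.8.4, TopHat2 2.0.12 and HTSeq 0.6.1 with build mm9. Which gene annotation and strand setting were used is not given in the sources used here. The authors deposited whole-number read counts per gene symbol, 1 file per library, without normalization. Rows that name no gene were left out of library totals. They include the reads outside exons, 18.5 to 23.4% of all reads counted.

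The counts were analysed in R 4.3.3 with edgeR 4.0.16: filterByExpr, TMM scaling, glmQLFit with robust = TRUE, glmQLFTest, and Benjamini-Hochberg adjustment over 13358 genes, called under 0.05. DESeq2 1.42.0, limma 3.58.1 (voom), RLE and upper-quartile scaling, other filters, a replicate block, leaving out each library and each pair of controls were alternatives. Exon lengths came from GENCODE M21 and promoter windows from RefSeq GRCm38.p6, and no coordinates come from the count files.

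Full values are given for called channel genes and for the gene with the most reads in each subfamily, and for up to 4 called genes with the smallest p per partner list. Sgk1, Nedd4l, Scn2a1, Gria1 to Gria4, Rest, the family members Fgf11 and Fgf14 and the named neuron markers were chosen after their values were seen. The channel genes and all gene lists were chosen with earlier results of these data known. Values of some genes under these rules are not reported here.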

Additional observations from a re-analysis of the deposited data

Results flagged for a closer look

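In each tested channel gene, the highest and the lowest of the 4 libraries of a group were set against the other 3 by the ratio of the gap to the range. Of 86 group checks 4 exceeded Dixon's 95% critical value of 0.829, and chance flags about 1 in 20. Scn8a was at 52.8 CPM in MaxKO library 4, while the other 3 MaxKO libraries were at 48.2 to 48.6. Trpc2 was at 50.3 CPM in the same library, while the others were at 44.3 to 45.1. Scnn1g was at 3.60 CPM in MaxKO library 1 and at 2.19 to 2.37 in the others. Trpm6 was at 1.36 CPM in control 1 and at 0.673 to 0.782 in the other controls.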

How the results depend on the processing

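The counts of 12 higher and 7 lower channel genes became 9 to 14 and 7 to 9 on leaving out 1 library, 16 and 10 against controls 1 and 2 alone, and 10 and 8 against controls 3 and 4 alone. For all genes called, the number was 6068 against controls 1 and 2 alone, beside 3084 with all 4. Partner genes called higher, 16 with all libraries, were 26 against controls 1 and 2 alone and 9 to 22 on leaving out 1 library, with 9 without MaxKO 1, 9 without MaxKO 2 and 10 without control 2. With the replicate number as a replicate block, 12 channel genes were higher, 7 lower and 2532 genes called in all. The correlations of same-numbered libraries' deviations from their group means were -0.2, -0.0123, 0.00198 and -0.107. Those of libraries with unlike numbers ran from -0.221 to 0.199. With so few libraries these values cannot show whether same-numbered libraries were handled together.

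Signs were compared for called genes given values, the most-read gene of each subfamily, and some genes chosen after their values were seen. Among these, signs changed only for 6 that had not passed the test. Trpv2 (0.01) was at -0.034 with upper-quartile scaling, -0.083 against controls 1 and 2 alone, and between -0.033 and 0.068 on leaving out 1 library. Trpc2 ranged from -0.114 to 0.038 and was at 0.166 against controls 1 and 2 alone. Cacna2d1 ranged from -0.154 to 0.053 and was at 0.161 against controls 3 and 4 alone. Against controls 1 and 2 alone Cacna2d1 was at -0.255 and passed the test (edgeR adjusted p = 0.0264). Scn2b ranged from -0.639 to 0.068, and Cacnb3 was at 0.037 against controls 1 and 2 alone. Fgf14 ranged from -0.177 to 0.05 and was at 0.141 against controls 3 and 4 alone. Against controls 1 and 2 alone Fgf14 was at -0.237 and passed (edgeR adjusted p = 0.0211). Outside this set further uncalled channel genes changed sign, among them Scn8a, Cacna2d3, Hcn2 and Scn3b. Scn8a (-0.14) was at 0.266 and Cacna2d3 (-0.05) at 0.05 against controls 1 and 2 alone. Hcn2 (0.04) was at -0.027 and Scn3b (0.10) at -0.253 without control 1. Cacna1g, Rbfox3, Ryr1, Scn2b and Stac2 gave no value with the filter of 1 CPM in 4 libraries, nor Stac2 against controls 3 and 4 alone. Cacna1h was also lost with upper-quartile scaling. The cause of these changes was not tested. Depth limits the genes under 1 CPM, which rest on a few reads per library.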
